A study of Mus musculus with 17 samples.

Results

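Epidermal stem cells sorted for Lgr6 were set against those sorted for Lgr5 in control mice, using 3 WT Lgr6 and 3 WT Lgr5 libraries, which are 6 of the 17 libraries of a study of ribosome rescue in mouse epidermis. WT Lgr6 cells came from mice with an EGFP-CreERT2 cassette at Lgr6, and WT Lgr5 cells from mice with that cassette at Lgr5. Both lines were C57BL/6, aged 3 months, carried 1 floxed and 1 intact copy of Pelo (Pelo fl/+, labelled WT) and had received 4-OHT, the tamoxifen metabolite that switches on CreERT2, so the controls had Cre activity and a floxed allele too. Per library, 1000 GFP-positive cells were sorted from whole epidermis. Each population came from its own line and its own reporter, so effects of line and of population cannot be told apart. The labels do not say whether libraries of a group came from separate mice. The p-values therefore measure a spread between libraries that may be technical, and it was estimated over all 17 libraries in a joint fit. The matching Pelo -/- libraries (Pelo fl/fl with the same cassettes and treatment), 3 of Lgr6 and 3 of Lgr5, share no library with the control comparison and were read beside it, from that same fit. Fold changes are log2 of WT Lgr6 over WT Lgr5, so that a positive value means higher in Lgr6-sorted cells.

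Hair follicles hold several stem cell pools. Lgr5, a receptor for R-spondins, marks the lower bulge and hair germ, the compartment that regrows the follicle and is kept quiet between cycles by the balance of BMP, Wnt, FGF and Hedgehog signals. Lgr6, a related receptor, marks the isthmus above the bulge and cells of the interfollicular epidermis and sebaceous gland, which renew the barrier facing the outside. Bulge cells are known for transcription factors such as Lhx2, Sox9 and Tcf7l1, for secreted BMP and Wnt antagonists and for an unusual matrix. Upper follicle keratinocytes are known for Ly6a (Sca-1), Plet1 and Gata6 and for contact with immune cells and microbes.

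Totals were 19723018, 21408579 and 28098841 counts in the WT Lgr6 libraries and 11223457, 11261870 and 9647507 in the WT Lgr5 libraries, so the Lgr5 side was read at lower depth. Satellite-like predicted genes accounted for 2.83%, 1.20% and 0.237% of counts in WT Lgr6, against 10.2%, 4.08% and 25.4% in WT Lgr5. Mitochondrial genes took 6.83%, 4.66% and 6.50% in WT Lgr6, against 12.0%, 6.15% and 3.69% in WT Lgr5. WT Lgr5 replicate 3 thus stood apart by its satellite-like counts, and its TMM scaling factor of 1.91 was the highest of the 17. Replicates correlated with Spearman's rho of 0.868 to 0.885 across genes among the WT Lgr6 libraries and 0.775 to 0.819 among the WT Lgr5 libraries. Levels are given as CPM (counts scaled to a common library size with TMM factors, per 1000000), in the order of replicates 1, 2 and 3, and values after ± on a log2 fold change are standard errors. Because they are not divided by gene length, they are compared between libraries and not between genes.

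The labels were first checked against the genes that mark these cells. Lgr6 itself (chr1:134983301-135105276, GRCm38, minus strand) had 159, 79.4 and 197 CPM in WT Lgr6, against 95.5, 103 and 17.7 CPM in WT Lgr5. WT Lgr5 replicate 2 exceeded WT Lgr6 replicate 2, so the groups overlapped, and the log2 fold change of 1.01 ± 0.49 was not called (adjusted p = 0.212, edgeR quasi-likelihood test with Benjamini-Hochberg adjustment over 30405 genes, as for every adjusted p here unless another tool is named). Transcript of the sorting gene therefore did not separate the Lgr6 libraries from the Lgr5 libraries beyond their spread. Lgr5 (chr10:115450311-115587780, minus strand) did separate them, with 1.73, 24.6 and 0.414 CPM in WT Lgr6, against 276, 570.0 and 364 CPM in WT Lgr5. WT Lgr6 replicate 2 lay well above its partners and far below any Lgr5 library (log2 fold change -5.49 ± 1.35, adjusted p = 0.0157). Without that replicate the fold change was -8.58 (adjusted p = 3.81e-05).

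Ly6a, the Sca-1 antigen of upper follicle and interfollicular keratinocytes, had 338, 324 and 775 CPM in WT Lgr6, against 0.135, 0.449 and 0.711 CPM in WT Lgr5 (chr15:74994877-74998031, minus strand). Each Lgr6 library exceeded each Lgr5 library by more than 100-fold, and the log2 fold change was 10.06 ± 0.64 (adjusted p = 4.15e-10). Grem1, a secreted BMP antagonist of the bulge, had 7.57, 28.1 and 3.16 CPM in WT Lgr6, against 399, 528 and 608 CPM in WT Lgr5 (chr2:113746164-113758646, minus strand). The groups lay far apart, with WT Lgr6 replicate 2 again the highest of its group (log2 fold change -5.30 ± 0.83, adjusted p = 1.70e-04). Plet1, the surface antigen of the isthmus, had 79.4, 99.2 and 145 CPM in WT Lgr6, against 9.19, 4.93 and 3.01 CPM in WT Lgr5 (log2 fold change 4.24 ± 0.59, adjusted p = 1.90e-05), and Cd34, the sialomucin used to sort the bulge, had 4.00, 38.3 and 9.93 CPM in WT Lgr6, against 232, 195 and 266 CPM in WT Lgr5 (log2 fold change -3.73 ± 0.85, adjusted p = 0.00552). Neither gene overlapped between the groups.

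Lrig1, a membrane protein of the upper follicle that dampens growth factor receptors, had 46.5, 45.3 and 60.02 CPM in WT Lgr6, against 18.1, 10.4 and 15.7 CPM in WT Lgr5. The groups did not overlap (log2 fold change 1.78 ± 0.50, adjusted p = 0.0177), but the call was lost without WT Lgr6 replicate 3 or WT Lgr5 replicate 2 or 3 (adjusted p = 0.0565 to 0.159), and with RLE size factors, with upper-quartile factors, without genes under 5 CPM, in the 6 libraries alone or after thinning (adjusted p = 0.0533 to 0.190). Krt15, a keratin often used for the bulge, had 5565, 8120.0 and 6145 CPM in WT Lgr6, against 3919, 4131 and 2839.7 CPM in WT Lgr5 and was not called (log2 fold change 0.86 ± 0.34, adjusted p = 0.108). Pelo, the rescue factor floxed in these mice, had 4.12, 5.39 and 2.02 CPM in WT Lgr6, against 17.4, 5.90 and 17.3 CPM in WT Lgr5 and was not called either (log2 fold change -1.82 ± 0.77, adjusted p = 0.139). Lgr4, the third receptor of the family, fell to 93.5, 87.8 and 94.3 CPM in WT Lgr6, against 317, 306 and 189.9 CPM in WT Lgr5 (log2 fold change -1.56 ± 0.36, adjusted p = 0.00363). Rspo3, a ligand of these receptors, had 11.5, 0.756 and 14.7 CPM in WT Lgr6, against 0.203, 0.192 and 1.59 CPM in WT Lgr5. WT Lgr6 replicate 2 lay within the range of the Lgr5 libraries, and the call was lost without WT Lgr6 replicate 1 or 3 or WT Lgr5 replicate 1 or 2 (adjusted p = 0.0596 to 0.151), and with RLE size factors, with upper-quartile factors, without genes under 5 CPM, in limma-voom or in the 6 libraries alone (adjusted p = 0.0577 to 0.103).

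**Figure D1:**
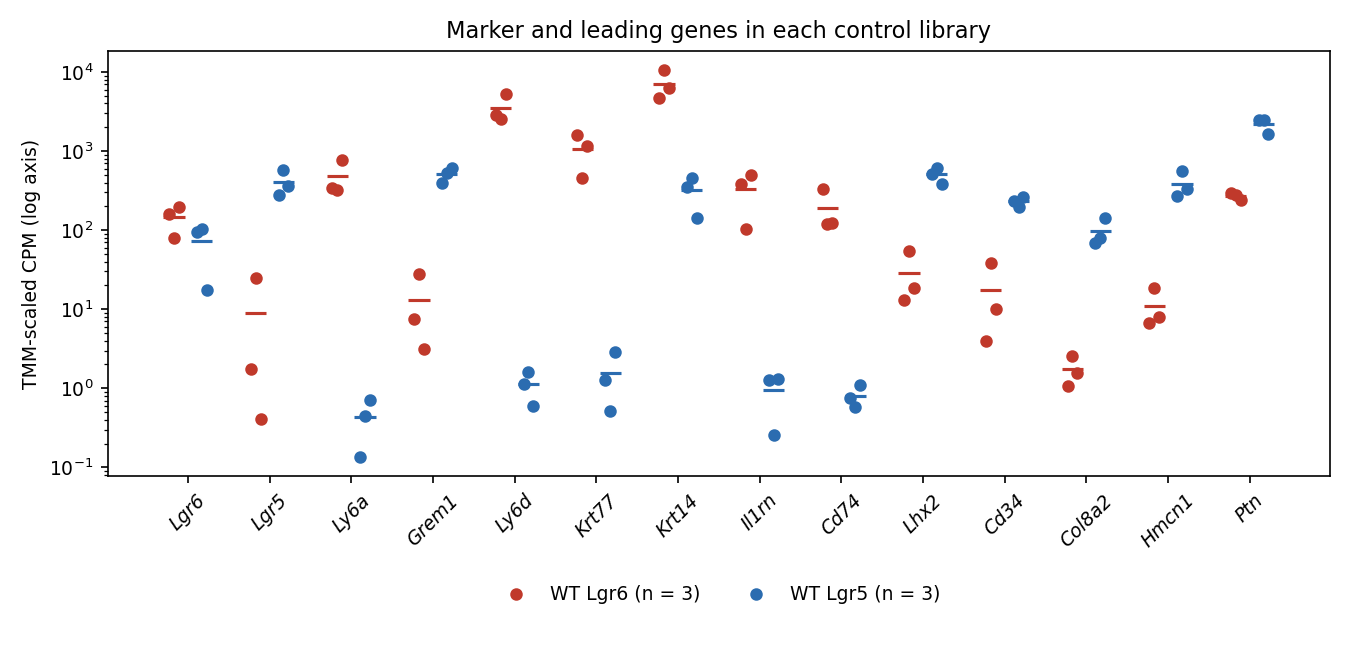
TMM-scaled CPM on a log axis for 14 marker and leading genes, with 1 point per library and a bar at the group mean, WT Lgr6 (red) left of WT Lgr5 (blue) for each gene. Lgr6 overlaps between the groups, while Ly6a lies higher and Lgr5, Grem1 and Cd34 lie lower in each WT Lgr6 library than in any WT Lgr5 library.

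Across the table, 3236 of 30405 genes were called higher in WT Lgr6 than in WT Lgr5, which is 10.6% of the genes tested, and 477 were called lower, which is 1.57%. The median log2 fold change over all genes was -0.49, with genes of few counts leaning lower and abundant genes leaning higher. Among the 1571 genes with a mean above 100 CPM, 53.7% were called higher and 4.65% lower, with a median of 1.35. Among the 8223 genes under 0.5 CPM, 0.0851% were called higher and 0.182% lower, with a median of -1.24. Groups did not overlap, with each WT Lgr6 library above each WT Lgr5 library, in 17.2% of the genes tested, and the opposite order held in 12.6%.

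The direction split of the calls differed between fits. Of the calls 87.2% were higher with TMM, against 68.8% with RLE size factors (2158 higher, 979 lower), 48.8% with upper-quartile factors (1692 higher, 1772 lower), 52.9% when genes under a mean of 5 CPM were left out (1941 higher, 1725 lower), 48.7% with DESeq2 (2995 higher, 3157 lower), 75.8% in a fit of the 6 libraries alone (1827 higher, 582 lower) and 75.5% with libraries thinned to the smallest (2536 higher, 823 lower). RLE factors moved the median of all genes by -0.51 on the log2 scale and upper-quartile factors by -0.88. Under the higher filter the median stood 0.45 above that of the main fit, but over fewer and more abundant genes. That value is therefore no shift of the same genes, and its sign does not give the direction in which the genes kept moved. Fold changes of named genes are therefore read against a median that itself moves. Single libraries weighed on the counts too: without WT Lgr6 replicate 3 there were 1676 calls higher and 256 lower, without WT Lgr5 replicate 3 there were 2017 higher, and without WT Lgr6 replicate 1 there were 300 lower. Called in each of the 6 fits that left out 1 library were 1539 genes higher and 194 lower. Because the libraries are bulk sorts, a larger share of cells of a type and more RNA per cell cannot be told apart.

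**Figure D2:**
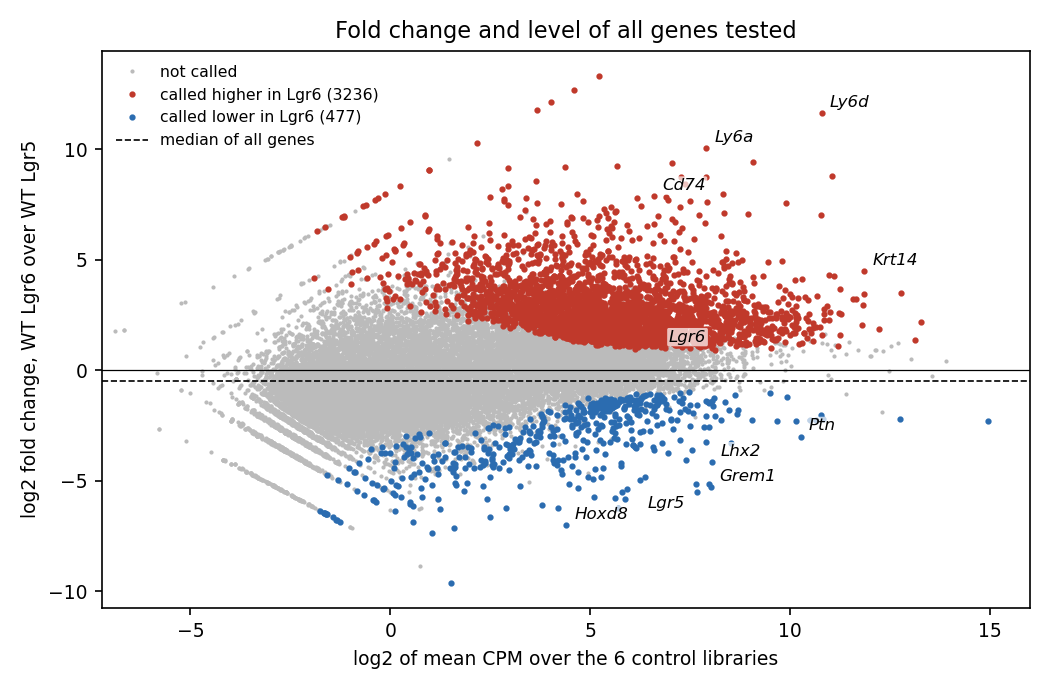
The log2 of the mean CPM over the 6 control libraries (horizontal) against the log2 fold change of WT Lgr6 over WT Lgr5 (vertical) for the genes tested, except 4 at 0 in these libraries, with the 3236 genes called higher in red, the 477 called lower in blue and the others in grey. The dashed line is the median of all genes (-0.49), calls higher crowd toward the more abundant genes, and labels mark some genes named in the text.

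Of the genes that fell in WT Lgr6, those with the largest folds included secreted signals, adhesion molecules and transcription factors. Hoxd8, a homeobox factor, had 0.119, 0.706 and 0.103 CPM in WT Lgr6, against 15.9, 69.1 and 40.3 CPM in WT Lgr5 (log2 fold change -7.02 ± 1.16, adjusted p = 1.99e-04). Cldn10, a tight junction claudin, had 0.239, 1.16 and 0 CPM in WT Lgr6, against 30.1, 66.2 and 11.9 CPM in WT Lgr5, with no counts in WT Lgr6 replicate 3 (log2 fold change -6.24 ± 1.13). Slc38a4, a transporter of neutral amino acids, had 1.01, 4.84 and 0.259 CPM in WT Lgr6, against 97.6, 229 and 21.3 CPM in WT Lgr5 (log2 fold change -5.82 ± 0.95). In these genes the lowest Lgr5 library still exceeded the highest Lgr6 library several times over.

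Hmcn1, which encodes the matrix protein hemicentin, was among the most evenly separated, with 6.62, 18.7 and 7.86 CPM in WT Lgr6, against 271, 562 and 330.0 CPM in WT Lgr5 (log2 fold change -5.13 ± 0.51, adjusted p = 3.65e-07). Col8a2, a chain of collagen VIII, had 1.07, 2.57 and 1.55 CPM in WT Lgr6, against 68.1, 80.05 and 142 CPM in WT Lgr5 (log2 fold change -5.79 ± 0.72). Angptl7, a secreted angiopoietin-like protein, had 0.358, 27.1 and 13.9 CPM in WT Lgr6, against 283, 184 and 1001 CPM in WT Lgr5. That gene varied widely within both groups without their overlapping (log2 fold change -5.15 ± 1.08, adjusted p = 0.00423). Mme, the surface peptidase neprilysin, had 1.97, 4.38 and 0.931 CPM in WT Lgr6, against 77.2, 209.6 and 42.8 CPM in WT Lgr5 (log2 fold change -5.49 ± 1.19). Lef1, a transcription factor of Wnt signalling in the hair germ, had 2.86, 0.857 and 0 CPM in WT Lgr6, against 23.4, 91.4 and 15.1 CPM in WT Lgr5 (log2 fold change -5.13 ± 1.22, adjusted p = 0.00689).

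The remaining members of this set were Fam171b (-6.22 ± 1.05), the leucine-rich repeat protein Lrrn3 (-5.38 ± 0.79), the BMP antagonist Nog (-5.33 ± 1.13), Pdzrn4 (-4.97 ± 1.19) and the adhesion molecule Nrcam (-4.94 ± 0.92), as log2 fold changes. Each of these falls was still called without any 1 of the 6 libraries. WT Lgr6 replicate 2 was the highest of its group in 256 of the 477 genes called lower (53.7%), and WT Lgr6 replicate 3 the lowest in 272 of them. Median levels over those 477 genes were 4.89, 7.86 and 3.62 CPM in WT Lgr6 and 34.3, 52.1 and 31.7 CPM in WT Lgr5. In that pattern WT Lgr6 replicate 2 stayed closer to the Lgr5 libraries than its partners did, yet well below them.

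Among the 15 largest rises, Ly6d, a small surface antigen, had 2875, 2544 and 5208 CPM in WT Lgr6, against 1.15, 1.60 and 0.601 CPM in WT Lgr5 (log2 fold change 11.63 ± 0.96, adjusted p = 1.94e-07). Krtdap, a secreted protein of differentiating keratinocytes, had 5189, 2000.3 and 5598 CPM in WT Lgr6, against 18.1, 9.74 and 0.984 CPM in WT Lgr5 (log2 fold change 8.79 ± 1.08), and Krt77, a suprabasal keratin, had 1619.7, 457 and 1144 CPM in WT Lgr6, against 1.28, 0.513 and 2.84 CPM in WT Lgr5 (log2 fold change 9.42 ± 1.29). In these 3 genes the highest Lgr5 library stayed below 20 CPM while the lowest Lgr6 library held over 100 CPM.

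Il1r2, the decoy receptor that binds interleukin-1 without signalling, had 386, 235 and 815 CPM in WT Lgr6, against 0.879, 0 and 2.41 CPM in WT Lgr5 (log2 fold change 8.74 ± 0.96, adjusted p = 4.77e-06). Its partner in restraint Il1rn, the interleukin-1 receptor antagonist, had 381, 105 and 499.8 CPM in WT Lgr6, against 1.28, 0.256 and 1.31 CPM in WT Lgr5 (log2 fold change 8.41 ± 0.71). Pyy, which encodes the peptide YY hormone, had 304, 275 and 347 CPM in WT Lgr6, against 0.338, 0.192 and 1.53 CPM in WT Lgr5 and was even across the Lgr6 libraries (log2 fold change 8.76 ± 0.75). Mt4, a metallothionein of stratified epithelia, had 89.0, 71.4 and 146 CPM in WT Lgr6, against 0.0676, 0 and 0.383 CPM in WT Lgr5 (log2 fold change 9.26 ± 1.04).

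Mrgprb11-ps, a pseudogene of the Mrgpr receptor family, had 46.7, 8.62 and 89.9 CPM in WT Lgr6 and no counts in any WT Lgr5 library. Set against a floor of 3 counts over the Lgr5 group (0.0616 CPM), it was at least 785-fold higher, and at least 449-fold without WT Lgr6 replicate 3. Akr1c18, a steroid dehydrogenase that inactivates progesterone, had 354, 93.4 and 345 CPM in WT Lgr6, against 0.338, 0.192 and 0.601 CPM in WT Lgr5, and the call was lost without WT Lgr5 replicate 1, 2 or 3 (adjusted p = 0.0544 to 0.0567). The other rises of this set were the retinol dehydrogenase Sdr16c5 (7.99 ± 1.45), Ly6g6c (7.97 ± 1.08), the class II invariant chain Cd74 (7.88 ± 0.63), Oas1f of the oligoadenylate synthetase family (7.82 ± 0.65) and Skint7 (7.80 ± 0.80), as log2 fold changes. Skint7 and Oas1f belong to families of close relatives, whose shared reads may have been split by the counting.

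Lists of genes by role show where these calls gather. In the counts below, the shares to set beside are the 10.6% of tested genes called higher and the 1.57% called lower, and the median of all genes is -0.49. Both shares rose with level. At a mean of 5 to 20 CPM 16.2% were called higher and 2.12% lower, at 20 to 100 CPM 29.2% and 3.90%, and over 100 CPM 53.7% and 4.65%. The lists were not matched for level, so those of abundant genes are to be set beside these larger shares. DESeq2 and upper-quartile scaling gave more members called lower in several lists: 10 and 9 of 15 Hedgehog genes, 14 and 12 of 32 other matrix genes, 10 and 9 of 31 neurotrophin and guidance genes, and 9 each of 19 BMP and TGF-beta receptors and effectors. With upper-quartile scaling fewer members were called higher in some: 9 of 24 AP-1, Egr and Klf factors, 4 of 24 interferon genes, 9 of 28 junction genes and 2 of 24 laminin and integrin genes. Among the 5 lists with the highest shares called, that scaling left 15 of 20 class I genes, 12 of 19 glycolysis genes, 34 of 80 cytosolic ribosomal proteins, 10 of 15 isthmus markers and 23 of 55 oxidative phosphorylation genes called higher.

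**Figure D3:**
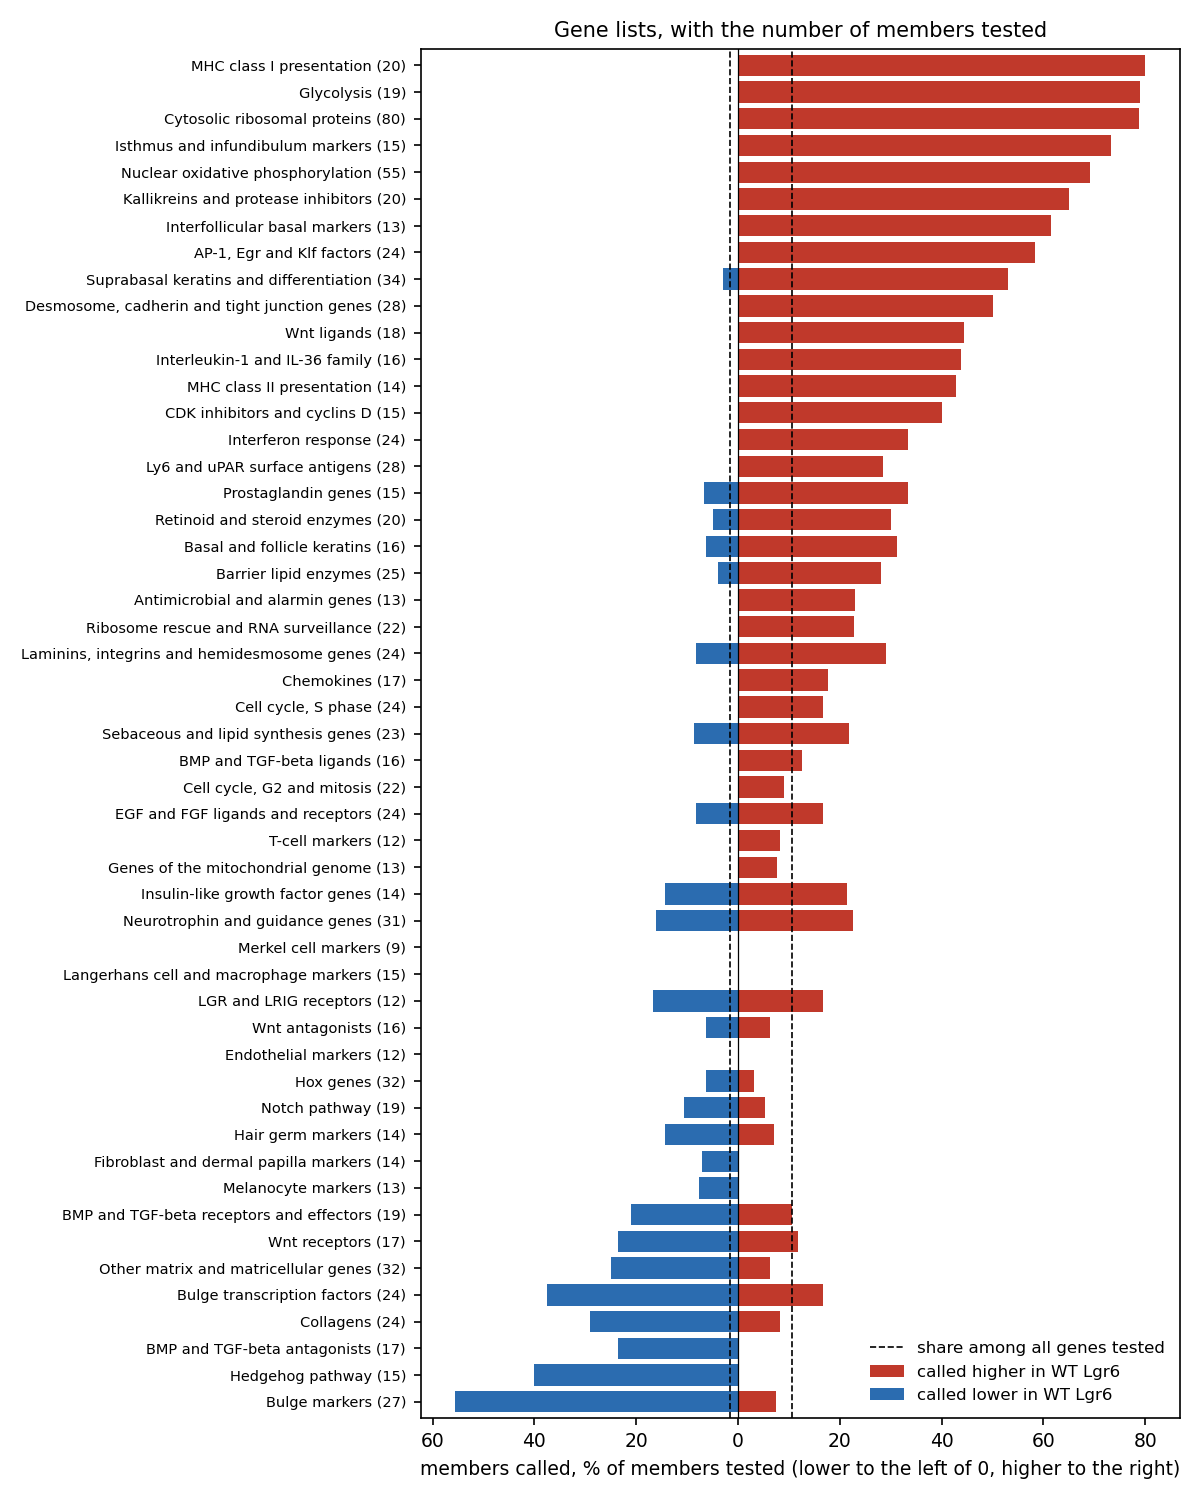
Members called higher in WT Lgr6 (red, to the right of 0) and lower (blue, to the left) as a percent of the members tested in each gene list, whose number stands in brackets. Dashed lines give the shares among all genes tested, 10.6% higher and 1.57% lower, and lists of class I, glycolysis and ribosomal protein genes stand at the top and bulge, Hedgehog and BMP antagonist lists at the bottom.

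Bulge markers mostly fell. Of 27 tested, 15 were called lower and 2 higher, with a median of -2.17. Ptn, the growth factor pleiotrophin, had 299, 278 and 241 CPM in WT Lgr6, against 2461, 2454 and 1652 CPM in WT Lgr5 (log2 fold change -3.01 ± 0.36, adjusted p = 3.22e-06). Ccn2, a matricellular protein also called connective tissue growth factor, had 78.5, 51.9 and 72.6 CPM in WT Lgr6, against 638, 461 and 895 CPM in WT Lgr5 (log2 fold change -3.30 ± 0.40). Both were tight within groups, and their groups lay several-fold apart. Dkk3, a secreted member of the Dickkopf family, had 8.17, 22.02 and 10.3 CPM in WT Lgr6, against 147, 99.5 and 166 CPM in WT Lgr5 (log2 fold change -3.35 ± 0.49, adjusted p = 3.53e-05). The 2 risers were Itga6 and Igfbp4: Igfbp4, a binding protein for insulin-like growth factors, had 73.6, 174 and 58.0 CPM in WT Lgr6, against 11.02, 24.9 and 5.19 CPM in WT Lgr5 (log2 fold change 2.89 ± 0.52, adjusted p = 3.11e-04).

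Transcription factors known from the follicle moved in both directions. Of 24 tested, 9 were called lower and 4 higher. Lhx2, a LIM homeobox factor that maintains bulge stem cells, had 13.001, 54.0 and 18.4 CPM in WT Lgr6, against 518, 618 and 381 CPM in WT Lgr5 (log2 fold change -4.15 ± 0.58, adjusted p = 2.56e-05). Sox9, which specifies follicle stem cells, had 141, 259.7 and 87.9 CPM in WT Lgr6, against 587, 651 and 709 CPM in WT Lgr5 (log2 fold change -1.99 ± 0.40), and Runx1, which promotes the onset of hair growth, had 17.2, 33.3 and 6.42 CPM in WT Lgr6, against 153, 159.5 and 86.4 CPM in WT Lgr5 (log2 fold change -2.81 ± 0.51). The partner of beta-catenin Tcf7l2 fell by 1.54 ± 0.35 on the log2 scale. In the other direction Gata3, a factor of the epidermis and inner root sheath, had 1125, 626 and 1079 CPM in WT Lgr6, against 152, 195 and 92.2 CPM in WT Lgr5 (log2 fold change 2.69 ± 0.37, adjusted p = 1.69e-05). Gata6, a factor of the upper follicle and sebaceous duct, had 43.1, 34.1 and 22.9 CPM in WT Lgr6, against 2.91, 3.27 and 6.07 CPM in WT Lgr5 (log2 fold change 3.03 ± 0.51). The nuclear factors Nfix and Nfia rose by 2.36 ± 0.41 and 2.03 ± 0.41 on the log2 scale. Tcf7l1 and Nfatc1, both known from the bulge, were not called.

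Of 14 hair germ markers 2 were called lower (14.3%, against 1.57% of all genes tested) and 1 higher (7.14%, against 10.6%). Their median was -0.77. Lef1 (above) and Shisa2 fell, and Shisa2, an inhibitor of Wnt and FGF receptor maturation, had 6.98, 34.3 and 5.95 CPM in WT Lgr6, against 178, 236 and 110.3 CPM in WT Lgr5 (log2 fold change -3.47 ± 0.70, adjusted p = 0.00167). Tnfrsf19, a receptor of the tumour necrosis factor family, had 211, 101 and 249 CPM in WT Lgr6, against 23.9, 127 and 14.7 CPM in WT Lgr5. WT Lgr5 replicate 2 exceeded WT Lgr6 replicate 2 for it, its adjusted p of 0.0487 passed narrowly, and the call was lost without WT Lgr6 replicate 1 or 3 or WT Lgr5 replicate 1 or 3 (adjusted p = 0.117 to 0.327), and with RLE size factors, with upper-quartile factors, without genes under 5 CPM, in DESeq2, in the 6 libraries alone, with the replicate block, with no low-count filter, after thinning or without satellite-like and mitochondrial genes (adjusted p = 0.0526 to 0.145).

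Of 32 Hox genes 2 were called lower (6.25%) and 1 higher (3.1%). Besides Hoxd8, Hoxc6 had 1.49, 3.83 and 2.28 CPM in WT Lgr6, against 21.0, 18.2 and 13.6 CPM in WT Lgr5 (log2 fold change -2.79 ± 0.72, adjusted p = 0.00913), and the call was lost without WT Lgr6 replicate 1 (adjusted p = 0.0515). Hoxa7 had the opposite order, with 34.5, 44.2 and 68.2 CPM in WT Lgr6, against 4.46, 6.73 and 2.79 CPM in WT Lgr5 (log2 fold change 3.39 ± 0.64, adjusted p = 5.41e-04).

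Signalling genes are given by role. Of 18 Wnt ligands and secretion genes 8 were called higher and 0 lower, although the list's median of 0.57 turned to -0.28 under upper-quartile scaling. Wnt3, a ligand of the canonical pathway, had 64.9, 69.7 and 119 CPM in WT Lgr6, against 1.08, 1.54 and 3.28 CPM in WT Lgr5 (log2 fold change 5.41 ± 0.55, adjusted p = 4.09e-07). Wnt4 had 51.2, 91.0 and 52.1 CPM in WT Lgr6, against 7.23, 9.61 and 2.84 CPM in WT Lgr5 (log2 fold change 3.30 ± 0.53) and Wnt10a had 70.1, 107 and 85.9 CPM in WT Lgr6, against 11.2, 9.16 and 4.05 CPM in WT Lgr5 (log2 fold change 3.43 ± 0.65). All 3 were several-fold higher in each Lgr6 library, and Wnt3a (4.04 ± 0.65) and Wnt7b (3.39 ± 0.63) were called with them in each fit without 1 library. Wnt5a, Wnt6 and Wnt16 were called too, but not in each of those fits, and the count was 5 without WT Lgr5 replicate 1 or WT Lgr6 replicate 3.

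Of 17 Wnt receptors 4 were called lower and 2 higher. Fzd7, a Frizzled receptor, had 50.5, 87.8 and 22.3 CPM in WT Lgr6, against 269.9, 344 and 308 CPM in WT Lgr5 (log2 fold change -2.52 ± 0.45, adjusted p = 3.01e-04). Fzd1 had 33.1, 46.2 and 27.9 CPM in WT Lgr6, against 182, 136 and 248 CPM in WT Lgr5 (log2 fold change -2.40 ± 0.42) and Fzd2 had 7.34, 14.6 and 9.05 CPM in WT Lgr6, against 71.0, 112 and 76.9 CPM in WT Lgr5 (log2 fold change -3.06 ± 0.48). Ror2, a co-receptor of noncanonical Wnt signalling, fell by 3.78 ± 1.07 on the log2 scale from low levels, but the call was lost without WT Lgr6 replicate 1 or 3 or WT Lgr5 replicate 2 (adjusted p = 0.0698 to 0.0853). Fzd10 rose, with 11.9, 15.3 and 15.004 CPM in WT Lgr6, against 1.15, 0.449 and 2.52 CPM in WT Lgr5 (log2 fold change 3.35 ± 0.74, adjusted p = 0.00258), and Fzd6 rose by 1.45 ± 0.43 on the log2 scale, but the call was lost without WT Lgr6 replicate 1 or 3 or WT Lgr5 replicate 2 or 3 (adjusted p = 0.0538 to 0.159), and with RLE size factors, with upper-quartile factors, without genes under 5 CPM, in DESeq2, in the 6 libraries alone or after thinning (adjusted p = 0.0668 to 0.176). Among 16 Wnt antagonists, Dkk3 was called lower and Apcdd1, a membrane inhibitor linked to hereditary hair loss, higher, with 22.96, 21.4 and 14.6 CPM in WT Lgr6, against 0.135, 0.192 and 1.04 CPM in WT Lgr5 (log2 fold change 5.38 ± 1.01, adjusted p = 5.29e-04). DESeq2 and upper-quartile scaling each called 8 receptors lower, and they called 6 and 4 antagonists lower.

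For the BMP and TGF-beta pathway, 2 of 16 ligands were called higher, near the share of all genes, and 4 of 17 antagonists were called lower. Bmp4 had 32.1, 21.4 and 62.7 CPM in WT Lgr6, against 0.338, 0.449 and 0.875 CPM in WT Lgr5 (log2 fold change 6.09 ± 0.82, adjusted p = 1.61e-05), and Bmp3, a member that dampens the others, had 67.1, 37.7 and 81.9 CPM in WT Lgr6, against 1.49, 0.192 and 4.54 CPM in WT Lgr5 (log2 fold change 4.89 ± 0.82). They were the 2 called of 16 ligands (12.5%, against 10.6% of all genes tested). The ligand median of 0.11 turned negative under RLE and upper-quartile scaling (-0.38 and -0.80). DESeq2 called 2 ligands lower. limma-voom, RLE factors, upper-quartile factors and the fit with no low-count filter called 1 lower each. Of 17 antagonists 4 were called lower and 0 higher. Beside Grem1, Nog (noggin, which binds BMPs outside the cell) had 0.119, 3.48 and 0.103 CPM in WT Lgr6, against 25.9, 65.2 and 60.1 CPM in WT Lgr5 (log2 fold change -5.33 ± 1.13, adjusted p = 0.00259). Fst, the activin-binding protein follistatin, had 70.0, 97.0 and 64.0 CPM in WT Lgr6, against 216, 266 and 287 CPM in WT Lgr5 (log2 fold change -1.74 ± 0.38), and Ltbp2, a matrix protein related to the binding proteins of latent TGF-beta, had 2.56, 8.72 and 0.983 CPM in WT Lgr6, against 34.3, 28.2 and 49.97 CPM in WT Lgr5 (log2 fold change -3.19 ± 0.65). Antagonists called lower numbered 8 with DESeq2 and with upper-quartile factors.

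Downstream, Id2 and Id4, which are targets of BMP signalling, were lower in WT Lgr6. Id2 had 127, 85.1 and 261 CPM in WT Lgr6, against 505, 481 and 685 CPM in WT Lgr5 (log2 fold change -1.82 ± 0.40, adjusted p = 0.00228), and Id4 had 35.4, 22.6 and 10.9 CPM in WT Lgr6, against 111, 107 and 91.2 CPM in WT Lgr5 (log2 fold change -2.17 ± 0.45). Id1 and Id3 of the same family were not called. Smad7, an inhibitor induced by TGF-beta, had 1.85, 8.67 and 6.98 CPM in WT Lgr6, against 43.3, 48.4 and 40.2 CPM in WT Lgr5 (log2 fold change -2.91 ± 0.56, adjusted p = 6.30e-04). Among receptors Tgfbr3, the co-receptor betaglycan, rose with 147, 61.5 and 86.3 CPM in WT Lgr6, against 18.5, 15.96 and 21.7 CPM in WT Lgr5 (log2 fold change 2.39 ± 0.39), and Tgfbr2 (1.69 ± 0.37) and Tgfbr1 (-1.49 ± 0.43) had opposite signs. For Tgfbr2 the call was lost without WT Lgr6 replicate 3 (adjusted p = 0.104), and with upper-quartile factors or in the 6 libraries alone (adjusted p = 0.0686 to 0.0921), and for Tgfbr1 the call was lost without WT Lgr6 replicate 2 or 3 (adjusted p = 0.0571 to 0.0940), and with no low-count filter (adjusted p = 0.0917).

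Hedgehog genes were lower, with 6 of 15 called lower, 0 higher and a median of -2.08. Ptch1, the receptor that is also a transcriptional target of the pathway, had 42.05, 49.9 and 42.3 CPM in WT Lgr6, against 394, 839 and 57.2 CPM in WT Lgr5. WT Lgr5 replicate 3 was close to the Lgr6 libraries, while replicates 1 and 2 were several times above them (log2 fold change -3.26 ± 0.62, adjusted p = 8.02e-04). The co-receptors Gas1, Boc and Cdon fell: Gas1 had 46.5, 106 and 64.9 CPM in WT Lgr6, against 386, 462 and 437 CPM in WT Lgr5 (log2 fold change -2.56 ± 0.36), Boc fell by 2.08 ± 0.45 and Cdon by 1.68 ± 0.43 on the log2 scale. For Cdon the call was lost with no low-count filter (adjusted p = 0.0521). Gli2, a transcription factor of the pathway, was also called lower. The ligand Shh was not called.

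Notch genes gave 2 calls lower and 1 higher of 19. Jag1, a Notch ligand, had 107, 125 and 84.7 CPM in WT Lgr6, against 404, 499 and 446 CPM in WT Lgr5 (log2 fold change -2.09 ± 0.34, adjusted p = 1.01e-04), while Dll1, another ligand, had 62.02, 34.7 and 94.9 CPM in WT Lgr6, against 10.5, 16.6 and 29.4 CPM in WT Lgr5 (log2 fold change 1.76 ± 0.45, adjusted p = 0.00905). The call of Jag1 held in each fit without 1 library, and for Dll1 the call was lost without WT Lgr6 replicate 3 or WT Lgr5 replicate 1 or 2 (adjusted p = 0.0567 to 0.236), and with RLE size factors, with upper-quartile factors, without genes under 5 CPM, in DESeq2 or in the 6 libraries alone (adjusted p = 0.0549 to 0.217). Mfng, a glycosyltransferase that tunes Notch receptors, passed narrowly with levels under 5 CPM in each library (adjusted p = 0.0497), and the call was lost without WT Lgr6 replicate 1, 2 or 3 or WT Lgr5 replicate 1 or 3 (adjusted p = 0.0667 to 0.176), and with the replicate block, with no low-count filter or after thinning (adjusted p = 0.0831 to 0.116).

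EGF and FGF genes gave 4 calls higher and 2 lower of 24. The EGF receptor ligands Hbegf and Epgn rose: Hbegf had 87.2, 31.7 and 113 CPM in WT Lgr6, against 1.01, 8.33 and 1.75 CPM in WT Lgr5 (log2 fold change 4.39 ± 0.69, adjusted p = 1.03e-04) and Epgn had 76.8, 50.3 and 145 CPM in WT Lgr6, against 1.22, 3.20 and 3.23 CPM in WT Lgr5 (log2 fold change 5.14 ± 1.03). Fgfbp1, which releases FGFs from the matrix, had 742, 313 and 815 CPM in WT Lgr6, against 13.7, 36.0 and 12.6 CPM in WT Lgr5 (log2 fold change 4.91 ± 0.54, adjusted p = 1.16e-06). Fgfr1, an FGF receptor, fell, with 21.1, 48.3 and 21.8 CPM in WT Lgr6, against 295, 324 and 199 CPM in WT Lgr5 (log2 fold change -3.16 ± 0.45, adjusted p = 2.32e-05). Erbb3 rose by 1.41 ± 0.35 and Egfr fell by 1.02 ± 0.33 on the log2 scale. For Erbb3 the call was lost without WT Lgr6 replicate 3 or WT Lgr5 replicate 3 (adjusted p = 0.0554 to 0.114), and with RLE size factors, with upper-quartile factors, without genes under 5 CPM or in the 6 libraries alone (adjusted p = 0.0785 to 0.196), and for Egfr the call was lost without WT Lgr6 replicate 1 or 3 or WT Lgr5 replicate 1 or 2 (adjusted p = 0.0598 to 0.109), and in the 6 libraries alone, with the replicate block, with no low-count filter or without satellite-like and mitochondrial genes (adjusted p = 0.0546 to 0.228).

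Matrix genes were called lower more often than higher, with 7 of 24 collagens lower and 2 higher, and 8 of 32 other matrix genes lower and 2 higher. Col6a1, a collagen VI chain, had 12.6, 15.2 and 8.07 CPM in WT Lgr6, against 67.1, 54.0 and 75.9 CPM in WT Lgr5 (log2 fold change -2.46 ± 0.46, adjusted p = 4.76e-04). Col12a1 had 11.9, 14.1 and 20.1 CPM in WT Lgr6, against 57.6, 53.7 and 119 CPM in WT Lgr5 (log2 fold change -2.32 ± 0.48), and Col1a2, a chain of collagen I and also a fibroblast marker, had 1.43, 4.59 and 0.362 CPM in WT Lgr6, against 39.4, 31.0 and 16.8 CPM in WT Lgr5 (log2 fold change -3.76 ± 0.78). Col23a1, a transmembrane collagen of epithelia, rose, with 52.7, 29.4 and 52.2 CPM in WT Lgr6, against 5.27, 3.40 and 12.1 CPM in WT Lgr5 (log2 fold change 2.69 ± 0.52, adjusted p = 6.54e-04). Postn, the matricellular protein periostin, had 756, 416 and 933 CPM in WT Lgr6, against 2016, 2853 and 3616 CPM in WT Lgr5 (log2 fold change -2.01 ± 0.37). Thbs2, a thrombospondin, went against this direction, with 146, 47.8 and 67.3 CPM in WT Lgr6, against 1.35, 2.44 and 3.72 CPM in WT Lgr5 (log2 fold change 5.11 ± 0.80, adjusted p = 1.40e-04). Ccn1 also rose (1.86 ± 0.45), unlike its relative Ccn2, but the call was lost without WT Lgr6 replicate 3 or WT Lgr5 replicate 2 or 3 (adjusted p = 0.0515 to 0.229), and with upper-quartile factors, without genes under 5 CPM or in the 6 libraries alone (adjusted p = 0.0662 to 0.0883). Without WT Lgr6 replicate 1 the other matrix genes called lower numbered 4, and DESeq2 called 13 collagens lower.

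Genes that fix keratinocytes to the basement membrane were called higher in 7 of 24 and lower in 2, and the list's median of 0.10 turned negative under RLE and upper-quartile scaling (-0.31 and -0.61). Itga3 had 44.6, 80.5 and 76.9 CPM in WT Lgr6, against 12.2, 13.3 and 8.97 CPM in WT Lgr5 (log2 fold change 2.55 ± 0.39, adjusted p = 5.65e-05) and Plec, the hemidesmosome linker plectin, had 90.7, 205 and 218 CPM in WT Lgr6, against 21.0, 30.5 and 40.7 CPM in WT Lgr5 (log2 fold change 2.48 ± 0.41). Itgb8, whose pairing with the alpha-v chain activates latent TGF-beta, fell, with 24.7, 26.2 and 13.9 CPM in WT Lgr6, against 102, 107 and 119 CPM in WT Lgr5 (log2 fold change -2.34 ± 0.41, adjusted p = 2.69e-04). Itga6 and Itgb4, which pair in hemidesmosomes, were called higher too, but for Itga6 the call was lost without WT Lgr6 replicate 3 (adjusted p = 0.0938), and with upper-quartile factors, without genes under 5 CPM or in the 6 libraries alone (adjusted p = 0.10003 to 0.126), and for Itgb4 the call was lost with upper-quartile factors, without genes under 5 CPM or in the 6 libraries alone (adjusted p = 0.0758 to 0.136). Without WT Lgr6 replicate 3 the list held 3 calls higher.

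Neurotrophin and axon guidance genes gave 7 calls higher and 5 lower of 31. Ntf3, the neurotrophin NT-3, had 49.4, 15.3 and 79.8 CPM in WT Lgr6, against 1.01, 0.897 and 0.547 CPM in WT Lgr5 (log2 fold change 5.87 ± 0.63, adjusted p = 9.14e-07), and Ngfr, the receptor p75 shared by neurotrophins, had 19.6, 14.6 and 11.4 CPM in WT Lgr6, against 1.35, 0.641 and 2.46 CPM in WT Lgr5 (log2 fold change 3.34 ± 0.67). Gdnf, a ligand of the RET receptor, had 10.3, 7.31 and 12.7 CPM in WT Lgr6, against 0.541, 1.47 and 0.601 CPM in WT Lgr5 (log2 fold change 3.52 ± 0.83). The class 3 semaphorins split, with Sema3d at 311, 63.8 and 311 CPM in WT Lgr6, against 1.83, 8.08 and 1.97 CPM in WT Lgr5 (log2 fold change 5.85 ± 0.68) and Sema3e at 37.4, 20.4 and 28.9 CPM in WT Lgr6, against 129, 97.3 and 204 CPM in WT Lgr5 (log2 fold change -2.31 ± 0.43). Plxna2, a semaphorin receptor, fell by 2.68 ± 0.41 on the log2 scale. Without WT Lgr6 replicate 3 the calls higher numbered 4.

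Insulin-like growth factor genes gave 3 calls higher and 2 lower of 14. Igfbp3 had 256, 401 and 668 CPM in WT Lgr6, against 41.9, 52.4 and 28.9 CPM in WT Lgr5 (log2 fold change 3.43 ± 0.41, adjusted p = 3.43e-06), whereas Igfbp5 had 0.895, 3.38 and 0.517 CPM in WT Lgr6, against 17.7, 66.3 and 26.7 CPM in WT Lgr5 (log2 fold change -4.52 ± 1.20, adjusted p = 0.0145). The rise of Igfbp3 held in each fit without 1 library, and for Igfbp5 the call was lost without WT Lgr6 replicate 1 or 3 (adjusted p = 0.0506 to 0.0717), and with no low-count filter (adjusted p = 0.0645). Retinoid genes gave 6 calls higher and 1 lower of 20, with Dhrs3, which reduces retinal, at 69.2, 60.2 and 69.3 CPM in WT Lgr6, against 6.96, 13.8 and 10.6 CPM in WT Lgr5 (log2 fold change 2.66 ± 0.49, adjusted p = 3.99e-04) and Crabp2, a retinoic acid carrier, at 9.24, 34.4 and 13.1 CPM in WT Lgr6, against 0.338, 0.833 and 0.984 CPM in WT Lgr5 (log2 fold change 4.70 ± 1.14). Cyp26b1, which degrades retinoic acid, fell, with 1.79, 7.91 and 0.414 CPM in WT Lgr6, against 29.1, 19.0 and 19.1 CPM in WT Lgr5, and the call was lost without WT Lgr6 replicate 1 or 3 or WT Lgr5 replicate 1 (adjusted p = 0.0576 to 0.101).

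Prostaglandin genes rose in 5 of 15 and fell in 1. Ptgs1, the cyclooxygenase COX-1, had 189, 72.2 and 96.4 CPM in WT Lgr6, against 1.35, 0.513 and 1.86 CPM in WT Lgr5 (log2 fold change 6.57 ± 0.63, adjusted p = 2.18e-07). The synthases Hpgds, for prostaglandin D2, and Ptges, for prostaglandin E2, rose by 5.89 ± 0.78 and 3.43 ± 0.62 on the log2 scale. Ptgr1, a prostaglandin reductase, rose by 2.70 ± 0.60, and Akr1c18 (above) is also on this list. Hpgd, the dehydrogenase that inactivates prostaglandins, fell, with 11.1, 34.8 and 25.3 CPM in WT Lgr6, against 134, 194 and 145 CPM in WT Lgr5 (log2 fold change -2.73 ± 0.50, adjusted p = 3.53e-04). Apart from Akr1c18, each of these calls held without any 1 library. The medians of the retinoid and prostaglandin lists, 0.29 and 0.41, turned negative under RLE and upper-quartile scaling.

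Isthmus and infundibulum markers rose in 11 of 15 members, with 0 lower and a median of 3.83. Klf5, a Krüppel-like factor of epithelia, had 76.6, 109 and 176 CPM in WT Lgr6, against 6.22, 2.18 and 3.01 CPM in WT Lgr5 (log2 fold change 4.99 ± 0.85, adjusted p = 3.56e-04). Krt79, a keratin of the infundibulum and sebaceous duct, had 125, 985 and 33.9 CPM in WT Lgr6, against 4.46, 4.999 and 9.13 CPM in WT Lgr5, highest in WT Lgr6 replicate 2 (log2 fold change 5.94 ± 1.17, and the call was lost in limma-voom (adjusted p = 0.0535)). Defb6, a beta-defensin, had 189, 571 and 327 CPM in WT Lgr6, against 0.135, 0 and 5.14 CPM in WT Lgr5, also highest in that replicate (log2 fold change 7.65 ± 1.41, adjusted p = 0.00207), and Defb1 had 50.8, 67.4 and 52.2 CPM in WT Lgr6, against 0.541, 0 and 0.273 CPM in WT Lgr5 (log2 fold change 7.68 ± 0.82). Interfollicular basal markers rose in 8 of 13, with 0 lower.

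Basal and follicle keratins rose in 5 of 16 and fell in 1. Krt14 had 4629.9, 10568 and 6200.0 CPM in WT Lgr6, against 355, 461 and 140.4 CPM in WT Lgr5 (log2 fold change 4.48 ± 0.47, adjusted p = 5.89e-07) and Krt5, which pairs with it, had 4704, 7038 and 5628 CPM in WT Lgr6, against 1616, 1765 and 772 CPM in WT Lgr5 (log2 fold change 2.06 ± 0.39). In the fit of the 6 libraries alone Krt5 had an adjusted p of 0.0535. Krt16, a keratin of stressed epidermis, had 74.1, 399 and 38.8 CPM in WT Lgr6, against 1.08, 3.52 and 0.875 CPM in WT Lgr5 (log2 fold change 6.54 ± 1.12). Krt24 was the keratin that fell, with 3.40, 9.12 and 4.45 CPM in WT Lgr6, against 211, 167 and 107 CPM in WT Lgr5 (log2 fold change -4.83 ± 0.79, adjusted p = 2.13e-04).

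Suprabasal keratins and differentiation genes were called higher in 18 of 34 and lower in 1, with a median of 2.56. Krt1 had 1353, 721 and 871 CPM in WT Lgr6, against 1.62, 15.6 and 4.92 CPM in WT Lgr5 (log2 fold change 7.06 ± 0.87, adjusted p = 1.41e-05) and its partner Krt10 had 2512, 1109.7 and 1530.2 CPM in WT Lgr6, against 23.3, 107 and 36.5 CPM in WT Lgr5 (log2 fold change 4.95 ± 0.63), the pair that replaces basal keratins as cells leave the basal layer. Casp14, a caspase of cornification, had 61.5, 22.1 and 56.6 CPM in WT Lgr6, against 0.473, 0 and 0.656 CPM in WT Lgr5 (log2 fold change 6.91 ± 0.81). The late envelope genes Lor, Flg, Ivl and Cdsn were not called. Calml3, a calmodulin-like protein, was the member that fell (-1.53 ± 0.42), but the call was lost without WT Lgr6 replicate 1 or 3 (adjusted p = 0.0580 to 0.0812).

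Promoters of the differentiation list were read because 18 of its 34 tested members were called higher. The 250 bases before each RefSeq transcript start (GRCm38.p6) were searched on both strands for TGANTCA, the core of AP-1 sites. It occurred in 39.3% of the 28 list members with a promoter entry, namely Dmkn, Flg, Flg2, Ivl, Krtdap, Lor, Prdm1, Rptn, Sbsn, Sprr1a and Sprr1b, against 7.82% of 27025 genes with an entry. Over the genes called higher the share was 7.18%, and over those tested 6.96%. Of the 11 members with a match, 5 were called higher, against 18 of the 34 tested members of the list. Flg, Ivl and Lor hold a match and were not called. The 200 bases before the start are printed for 4 members with a match, 2 neighbours on chromosome 7 and 2 on chromosome 3. They are given on each gene's own strand with the match in capitals.
Krtdap: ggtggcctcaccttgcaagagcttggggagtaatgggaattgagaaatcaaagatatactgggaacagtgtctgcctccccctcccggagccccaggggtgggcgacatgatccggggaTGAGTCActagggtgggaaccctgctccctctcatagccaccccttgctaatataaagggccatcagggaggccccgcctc
Sbsn: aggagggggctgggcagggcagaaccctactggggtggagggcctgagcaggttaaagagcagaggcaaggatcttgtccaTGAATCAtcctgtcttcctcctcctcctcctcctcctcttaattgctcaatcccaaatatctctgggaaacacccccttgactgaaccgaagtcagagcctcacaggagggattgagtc
Sprr1a: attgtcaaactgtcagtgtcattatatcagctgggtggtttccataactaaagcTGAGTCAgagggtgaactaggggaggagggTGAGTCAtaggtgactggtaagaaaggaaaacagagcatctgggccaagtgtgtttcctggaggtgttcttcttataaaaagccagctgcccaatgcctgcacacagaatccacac
Sprr1b: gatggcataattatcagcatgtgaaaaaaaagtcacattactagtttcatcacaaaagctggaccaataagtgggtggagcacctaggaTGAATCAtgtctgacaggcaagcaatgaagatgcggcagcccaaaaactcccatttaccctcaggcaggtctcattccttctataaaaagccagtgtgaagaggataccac
These windows lie at chr7:30787705-30787904 (plus strand), chr7:30751271-30751470 (plus), chr3:92485882-92486081 (minus) and chr3:92438780-92438979 (minus). Sprr1a holds 2 matches and the others 1 each. Sprr1a and Sprr1b, near-identical envelope precursors, may share reads. A match describes letters, not binding.

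Enzymes of the barrier lipids rose in 7 of 25 and fell in 1, with a median of 0.75 that turned to -0.18 under upper-quartile scaling. Elovl4, which extends fatty acids to the length used in barrier ceramides, had 153, 58.8 and 80.1 CPM in WT Lgr6, against 0.338, 0.128 and 1.48 CPM in WT Lgr5 (log2 fold change 7.18 ± 0.89, adjusted p = 1.31e-05). Acer1, an alkaline ceramidase, had 169.6, 33.2 and 56.8 CPM in WT Lgr6, against 0.338, 0.641 and 1.15 CPM in WT Lgr5 (log2 fold change 6.90 ± 0.75). Sgms2, a sphingomyelin synthase, fell, with 7.75, 6.15 and 16.8 CPM in WT Lgr6, against 33.5, 72.3 and 19.1 CPM in WT Lgr5, and the call was lost without WT Lgr6 replicate 1 or 2 or WT Lgr5 replicate 2 (adjusted p = 0.0897 to 0.169), and in limma-voom (adjusted p = 0.0572). Sebaceous and lipid synthesis genes had 5 calls higher and 2 lower of 23, with Scd1, a fatty acid desaturase, at 200.1, 126 and 153 CPM in WT Lgr6, against 44.5, 58.0 and 21.4 CPM in WT Lgr5 (log2 fold change 1.95 ± 0.42) and the cholesterol synthesis enzyme Hmgcs1 at 486, 313 and 597 CPM in WT Lgr6, against 148, 103 and 59.8 CPM in WT Lgr5 (log2 fold change 2.16 ± 0.38). Without WT Lgr5 replicate 2 or 3, 3 of that list were called higher, and its median of 0.72 was -0.22 under upper-quartile scaling.

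Genes of cell junctions rose in 14 of 28, with 0 lower. Pkp1, a desmosomal plakophilin, had 894, 733 and 652 CPM in WT Lgr6, against 113, 124 and 65.1 CPM in WT Lgr5 (log2 fold change 2.92 ± 0.35, adjusted p = 3.70e-06), and Jup, plakoglobin, had 1057, 1059 and 809 CPM in WT Lgr6, against 178, 59.7 and 44.2 CPM in WT Lgr5 (log2 fold change 3.38 ± 0.51). The connexin Gjb5 had 134, 73.9 and 166 CPM in WT Lgr6, against 9.19, 2.24 and 9.24 CPM in WT Lgr5 (log2 fold change 4.17 ± 0.60). Cdh1, E-cadherin, and Dsg3 were not called. Without WT Lgr6 replicate 3, 9 of the list were called.

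Kallikreins and protease inhibitors, which govern how the outer layer is shed, rose in 13 of 20 with 0 lower. Klk11 had 100.02, 33.7 and 166 CPM in WT Lgr6, against 1.01, 0.513 and 0.492 CPM in WT Lgr5 (log2 fold change 7.21 ± 0.70, adjusted p = 3.00e-07). Serpinb2, a plasminogen activator inhibitor, had 1791, 534 and 3399 CPM in WT Lgr6, against 12.6, 10.8 and 6.23 CPM in WT Lgr5 (log2 fold change 7.59 ± 0.85), and Serpinb5, maspin, had 1226, 636 and 1700.0 CPM in WT Lgr6, against 236, 278 and 171 CPM in WT Lgr5 (log2 fold change 2.38 ± 0.38). Proteases and their inhibitors were thus called in the same direction, as in Spint2, an inhibitor of membrane serine proteases, which rose by 1.94 ± 0.39 on the log2 scale.

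Ly6 surface antigens rose in 8 of 28 members, with 0 lower and a median of 0.77 that turned to -0.10 under upper-quartile scaling. Besides Ly6a and Ly6d, Ly6e had 469.9, 421 and 510.0 CPM in WT Lgr6, against 4.597, 8.14 and 1.04 CPM in WT Lgr5 (log2 fold change 6.67 ± 0.76, adjusted p = 4.21e-06) and Ly6c1 had 14.1, 36.1 and 53.3 CPM in WT Lgr6, against 1.15, 0.897 and 1.69 CPM in WT Lgr5 (log2 fold change 4.78 ± 0.66). Those 4 genes lie between 74762056 and 75048830 on chromosome 15. Ly6g6c lies apart from them, within the histocompatibility region of chromosome 17. Lypd3, a relative bound to the membrane of suprabasal cells, had 180.4, 176 and 126 CPM in WT Lgr6, against 14.7, 14.8 and 6.29 CPM in WT Lgr5 (log2 fold change 3.75 ± 0.49). Reads of Ly6a and Ly6c1, which are close in sequence, may have been shared between them.

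Histocompatibility class I genes gave the highest share of calls among the lists. Of 20 class I presentation genes 16 were called higher and 0 lower, with a median of 3.54 and no member below 0. H2-D1, a classical class I heavy chain, had 1993, 1864 and 1340.4 CPM in WT Lgr6, against 151, 177 and 86.9 CPM in WT Lgr5 (log2 fold change 3.65 ± 0.37, adjusted p = 5.04e-07). H2-Q6 had 285, 198 and 323 CPM in WT Lgr6, against 3.24, 6.92 and 3.61 CPM in WT Lgr5 (log2 fold change 5.87 ± 0.56) and H2-Q7 had 317, 259 and 455 CPM in WT Lgr6, against 6.76, 6.86 and 11.2 CPM in WT Lgr5 (log2 fold change 5.38 ± 0.51), though these are near-identical copies whose reads could be split. H2-T22 had 99.0, 135 and 289 CPM in WT Lgr6, against 6.83, 5.38 and 5.85 CPM in WT Lgr5 (log2 fold change 4.85 ± 0.51). The calls took in the light chain B2m, the peptide transporter Tap1, the immunoproteasome subunits Psmb8, Psmb9 and Psmb10 and the class I activator Nlrc5. Summed over the list the level ran from 7792 to 13098 CPM in WT Lgr6 and from 531 to 1178 CPM in WT Lgr5.

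Class II presentation genes rose in 6 of 14, with 0 lower. Cd74, the invariant chain that guards the peptide groove, had 331, 121 and 125 CPM in WT Lgr6, against 0.744, 0.577 and 1.09 CPM in WT Lgr5 (adjusted p = 3.63e-08). H2-Aa had 103, 51.3 and 28.04 CPM in WT Lgr6, against 0.338, 0.0641 and 1.26 CPM in WT Lgr5 (log2 fold change 6.73 ± 0.80) and H2-Eb1 had 30.7, 47.8 and 19.9 CPM in WT Lgr6, against 0.135, 0.449 and 1.15 CPM in WT Lgr5 (log2 fold change 5.79 ± 1.02). Even the lowest of the Lgr6 libraries exceeded the Lgr5 libraries more than 10-fold in these 3 genes. Ciita, the class II activator, was not called. H2-DMa, which helps load peptides, had 30.4, 12.3 and 2.38 CPM in WT Lgr6, against 0.879, 0.833 and 2.13 CPM in WT Lgr5 and the call was lost without WT Lgr6 replicate 1 (adjusted p = 0.0592).

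Langerhans cells of the epidermis also carry class II, so their markers were read in the same libraries. None of 15 Langerhans cell and macrophage markers was called, and their summed level was 95.0 to 247 CPM in WT Lgr6 and 58.8 to 127 CPM in WT Lgr5. The defining marker Cd207 had 5.13, 1.56 and 2.17 CPM in WT Lgr6, against 1.22, 0.513 and 2.24 CPM in WT Lgr5 and Ptprc, the leukocyte antigen CD45, had 3.04, 1.26 and 0.673 CPM in WT Lgr6, against 3.99, 0.449 and 5.25 CPM in WT Lgr5. No defining marker of that list was at 0 in a control library. Their part in the class II levels was not tested.

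Promoters of the presentation genes were searched in the same way for CTGATTGG, the Y box bound by NF-Y. It was found in 37.5% of 16 class I list members (H2-D1, H2-Q6, H2-Q7, H2-T23, Psmb9 and Tap1) and in 27.3% of 11 class II members (H2-Aa, H2-Eb1 and H2-Oa). Against these stood 4.43% of 27025 genes, 5.41% of those tested, 6.82% of those called higher and 4.11% of those called lower. H2-Q6 and H2-Q7 are near-identical copies, so their matches may not be separate occurrences. For 4 of the genes with a match the 120 bases before the start follow, with the match in capitals. In the class I pair it reads CCAATCAG because the motif is on the other strand.
H2-Aa: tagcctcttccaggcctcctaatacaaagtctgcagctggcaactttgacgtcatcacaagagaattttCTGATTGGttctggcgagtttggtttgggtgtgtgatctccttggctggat
H2-Eb1: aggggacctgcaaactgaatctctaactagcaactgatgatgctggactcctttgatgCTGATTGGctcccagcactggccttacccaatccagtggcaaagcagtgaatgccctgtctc
H2-D1: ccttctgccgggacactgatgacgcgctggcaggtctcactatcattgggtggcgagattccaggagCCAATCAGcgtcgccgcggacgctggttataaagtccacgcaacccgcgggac
H2-Q6: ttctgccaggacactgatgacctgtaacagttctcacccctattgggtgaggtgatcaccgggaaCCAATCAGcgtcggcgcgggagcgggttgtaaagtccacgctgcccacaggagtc
The windows lie at chr17:34287824-34287943 (minus strand), chr17:34305747-34305866 (plus), chr17:35262974-35263093 (plus) and chr17:35424730-35424849 (plus). In all 4 the match begins between 62 and 51 bases before the start.

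Interferon genes rose in 8 of 24, with 0 lower. Ifngr1, the ligand-binding chain of the interferon-gamma receptor, had 308, 173 and 406 CPM in WT Lgr6, against 10.005, 2.76 and 7.22 CPM in WT Lgr5 (log2 fold change 5.47 ± 0.49, adjusted p = 1.04e-07). Ifitm3, an antiviral membrane protein, had 734, 497 and 1131 CPM in WT Lgr6, against 26.3, 28.1 and 4.32 CPM in WT Lgr5 (log2 fold change 5.33 ± 0.56), and Irf1, a transcription factor induced by interferon-gamma, had 33.2, 30.0 and 31.2 CPM in WT Lgr6, against 6.90, 2.11 and 2.08 CPM in WT Lgr5 (log2 fold change 3.09 ± 0.71). The groups were apart in these 3. Ifngr2 and Ifitm2 rose by 2.40 ± 0.62 and 1.98 ± 0.49 on the log2 scale. For Ifngr2 the call was lost without WT Lgr6 replicate 3 or WT Lgr5 replicate 1 or 3 (adjusted p = 0.0505 to 0.0948), and in the 6 libraries alone (adjusted p = 0.0640). For Ifitm2 the call was lost without WT Lgr6 replicate 3 or WT Lgr5 replicate 3 (adjusted p = 0.0723 to 0.133), and with upper-quartile factors or in the 6 libraries alone (adjusted p = 0.0505 to 0.0520). The list's count was 4 without WT Lgr5 replicate 3 and 3 without WT Lgr6 replicate 3.

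Interleukin-1 family genes rose in 7 of 16, with 0 lower. In addition to Il1r2 and Il1rn, Il1f9 (IL-36 gamma, an agonist) had 17.5, 16.6 and 61.0 CPM in WT Lgr6, against 0.811, 0.192 and 0.875 CPM in WT Lgr5 (log2 fold change 5.64 ± 0.82, adjusted p = 3.46e-05). Il1f5 (the IL-36 receptor antagonist) had 31.1, 8.97 and 36.2 CPM in WT Lgr6, against 0.879, 0.192 and 1.31 CPM in WT Lgr5 (log2 fold change 4.98 ± 0.88), and Il1rl2, the IL-36 receptor, had 155, 131 and 160.3 CPM in WT Lgr6, against 29.7, 54.1 and 18.5 CPM in WT Lgr5 (log2 fold change 2.12 ± 0.42). Agonist, antagonist and receptor of the IL-36 arm were therefore each higher. The agonists Il1a, Il1b and Il18 were not called. Among 17 chemokines and cytokines 3 rose, led by Cxcl16 with 81.5, 113 and 84.0 CPM in WT Lgr6, against 7.57, 10.1 and 12.4 CPM in WT Lgr5 (log2 fold change 3.21 ± 0.49), and 1 was called without WT Lgr5 replicate 3 or WT Lgr6 replicate 3.

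AP-1, Egr and Klf factors, genes that also respond within minutes to handling of cells, were called higher in 14 of 24 with 0 lower. That count was 4 without WT Lgr6 replicate 3 and 7 without WT Lgr5 replicate 3. Egr2 had 68.6, 69.4 and 37.8 CPM in WT Lgr6, against 0.811, 1.35 and 2.08 CPM in WT Lgr5 (log2 fold change 5.36 ± 0.85, adjusted p = 1.34e-04), and Fosl1, the AP-1 subunit Fra-1, had 10.7, 13.3 and 21.1 CPM in WT Lgr6, against 0.676, 0.769 and 1.59 CPM in WT Lgr5 (log2 fold change 3.88 ± 0.76). Nr4a1 had 182, 54.9 and 264 CPM in WT Lgr6, against 28.5, 39.5 and 34.4 CPM in WT Lgr5, where WT Lgr6 replicate 2 was close to the Lgr5 libraries, and the call was lost without WT Lgr6 replicate 3 (adjusted p = 0.105). Fos and Jun were not called. Summed over the list, levels ran from 3369.6 to 12979 CPM in WT Lgr6 and from 2038 to 3378 CPM in WT Lgr5. The WT Lgr6 libraries thus differed widely among themselves, with replicate 2 at 3369.6 CPM, close to the Lgr5 libraries, and replicate 3 at the top. Whether tissue dissociation took part in these levels was not tested.

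Cell cycle lists had 16.7% (S phase), 9.09% (G2 and mitosis) and 40% (G1) of their members called higher. Of 24 S phase genes 4 rose and 0 fell, with a median of 0.99, and 8 rose without WT Lgr5 replicate 2. Gins2, part of the replicative helicase complex, had 28.8, 36.2 and 28.4 CPM in WT Lgr6, against 1.96, 1.67 and 1.48 CPM in WT Lgr5 (log2 fold change 4.19 ± 0.54, adjusted p = 7.39e-06), and Mcm5 of the same machine had 49.9, 91.9 and 29.7 CPM in WT Lgr6, against 11.2, 12.4 and 2.02 CPM in WT Lgr5 (log2 fold change 2.74 ± 0.57). Of 22 genes of G2 and mitosis 2 rose, Prc1 and Aurka. For Prc1, which bundles spindle microtubules, the call was lost without WT Lgr6 replicate 3 or WT Lgr5 replicate 3 (adjusted p = 0.0536 to 0.0922), and in the 6 libraries alone (adjusted p = 0.0557). For Aurka, a mitotic kinase, the call was lost without WT Lgr6 replicate 1 or 3 or WT Lgr5 replicate 1, 2 or 3 (adjusted p = 0.0618 to 0.162), and with RLE size factors, with upper-quartile factors, without genes under 5 CPM, in the 6 libraries alone or after thinning (adjusted p = 0.0614 to 0.139). Of 15 regulators of the G1 phase 6 rose and 0 fell. Ccnd2, a D-type cyclin, had 685, 664 and 732 CPM in WT Lgr6, against 51.8, 40.8 and 16.02 CPM in WT Lgr5 (log2 fold change 4.26 ± 0.46, adjusted p = 9.08e-07). Cdkn1a, the inhibitor p21, had 168, 169 and 154 CPM in WT Lgr6, against 4.597, 11.4 and 1.59 CPM in WT Lgr5 (log2 fold change 4.80 ± 0.53), so that a cyclin and an inhibitor were both higher in each Lgr6 library.

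Glycolysis genes rose in 15 of 19, with 0 lower and a median of 2.31. Aldoa, aldolase, had 513, 545 and 769.9 CPM in WT Lgr6, against 50.4, 86.6 and 31.7 CPM in WT Lgr5 (log2 fold change 3.44 ± 0.40, adjusted p = 2.50e-06), and Eno1, enolase, had 290.2, 258 and 298 CPM in WT Lgr6, against 18.4, 17.8 and 5.14 CPM in WT Lgr5 (log2 fold change 4.36 ± 0.62). Ldha, lactate dehydrogenase, had 506, 543 and 692 CPM in WT Lgr6, against 75.3, 137 and 109.7 CPM in WT Lgr5 (log2 fold change 2.43 ± 0.35). Of 55 nuclear genes of oxidative phosphorylation 38 rose and 0 fell, and 63 of 80 cytosolic ribosomal protein genes rose with 0 lower. The ribosomal count was 26 without WT Lgr6 replicate 3, 29 without WT Lgr5 replicate 3 and 34 with upper-quartile factors, and for oxidative phosphorylation these were 23, 24 and 23. Genes of the mitochondrial genome had 1 call of 13, mt-Co1, for which the call was lost without WT Lgr6 replicate 3 or WT Lgr5 replicate 2 or 3 (adjusted p = 0.0533 to 0.0919), and in the 6 libraries alone (adjusted p = 0.0653). The satellite-like share of counts, given above, was highest in WT Lgr5 replicate 3, which was also the lowest of its group in 1914 of the 3236 genes called higher (59.1%). In the fit without both satellite-like and mitochondrial genes, 54 of 80 ribosomal, 33 of 55 oxidative phosphorylation and 14 of 19 glycolysis genes were called higher, with 2903 genes higher and 476 lower over the table. The part of satellite-like counts alone was not tested.

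Of 22 genes of ribosome rescue and RNA surveillance, the pathway of Pelo, 5 rose and 0 fell, and the list's median of 0.53 turned negative under upper-quartile scaling (-0.39). Rack1, a ribosomal protein that acts at collided ribosomes, had 1631, 1865 and 2064 CPM in WT Lgr6, against 526, 497 and 196 CPM in WT Lgr5 (log2 fold change 2.19 ± 0.40, adjusted p = 3.51e-04). Wdr61, a subunit of the SKI complex that hands messenger RNA to the exosome, had 537, 230.4 and 585 CPM in WT Lgr6, against 103, 96.1 and 25.6 CPM in WT Lgr5 (log2 fold change 2.59 ± 0.50). Both were higher in each Lgr6 library. With upper-quartile factors 2 of the list were called.

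Markers of other cell types that a sort could carry were read in the same libraries. T-cell markers summed to 57.5 to 132 CPM in WT Lgr6 and 22.6 to 30.0 CPM in WT Lgr5, with 1 of 12 called, Thy1, which had 20.9, 35.4 and 18.9 CPM in WT Lgr6, against 0.879, 0.513 and 1.15 CPM in WT Lgr5 (log2 fold change 4.87 ± 0.67, adjusted p = 1.63e-05). Thy1 is not particular to T cells. Cd3e, of the T-cell receptor complex, had 2.56, 0.504 and 0.0517 CPM in WT Lgr6, against 0.270, 0.256 and 1.31 CPM in WT Lgr5, and Cd3g of the same complex had 24.3, 1.97 and 0 CPM in WT Lgr6, against 0.879, 0.320 and 0.820 CPM in WT Lgr5 and was not called. Cd3g and Cd3d thus stood out in WT Lgr6 replicate 1 and were at 0 in WT Lgr6 replicate 3. Melanocyte markers summed to 21.8 to 48.3 CPM in WT Lgr6 and 69.5 to 137 CPM in WT Lgr5, with Mitf, a factor of pigment cells, called lower (15.9, 16.8 and 16.5 CPM in WT Lgr6, against 40.3, 63.4 and 84.7 CPM in WT Lgr5). Dct, a pigment enzyme, had 7.81, 4.18 and 1.55 CPM in WT Lgr6, against 9.94, 39.0 and 8.91 CPM in WT Lgr5 and was not called. Of the 13 melanocyte markers 10 were lower in value and 3 higher. In raw counts over each group, Tyrp1 had 215 in WT Lgr6 and 147 in WT Lgr5, Tyr 42 and 24, and Pmel 224 and 240, with the Lgr6 libraries read deeper. Fibroblast markers summed to 3.31 to 40.2 CPM in WT Lgr6 and 51.5 to 74.0 CPM in WT Lgr5, where 1 of 14 was called lower, Col1a2. Pdgfra had 2.15, 1.66 and 0.517 CPM in WT Lgr6, against 3.92, 1.79 and 7.33 CPM in WT Lgr5, and Lum was at 0 in 1 library of each group. Of the 14 fibroblast and dermal papilla markers 11 were lower in value and 3 higher. Col3a1, another fibroblast marker, had 211 raw counts over the WT Lgr6 libraries and 109 over the WT Lgr5 libraries. Endothelial markers summed to 6.62 to 18.6 CPM in WT Lgr6 and 20.1 to 48.2 CPM in WT Lgr5, and Merkel cell markers to 2.85 to 8.57 CPM in WT Lgr6 and 6.02 to 18.9 CPM in WT Lgr5. None of the 12 and 9 genes of these lists was called, and Atoh1, the Merkel cell factor, was at 0 in 1 WT Lgr6 library and Isl1 in 1 WT Lgr5 library. Whether cells of these types contributed to the collagen and matrix falls was not tested.

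The same pair of populations in the Pelo -/- libraries gave 2198 genes called higher in Lgr6, 7.23% of those tested, and 828 called lower, 2.72%. Of the 3236 genes called higher in the controls, 1815 were called higher there, which is 56.1% of the control calls and 82.6% of the Pelo -/- calls. Of the 477 lower ones 293 were called lower, which is 61.4% of the control calls and 35.4% of the Pelo -/- calls. The sign was kept in 98.6% of the higher set, where 37.4% of all genes were positive, and in 96.9% of the lower set, where 62.4% of all genes were negative. Median log2 fold changes were 1.74 in Pelo -/- and 2.49 in control cells for the higher set, and -2.38 in Pelo -/- and -2.91 in control cells for the lower set. The sets were chosen by their control values, so these medians are no test of a difference between genotypes.

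Marker genes kept their order. Ly6a had a log2 fold change of 9.62 ± 0.63 in Pelo -/-, against 10.06 ± 0.64 in controls, and Grem1 had -5.53 ± 0.84 in Pelo -/-, against -5.30 ± 0.83 in controls. Lgr5 had 0.468, 1.87 and 0.0531 CPM in Pelo -/- Lgr6, against 549.8, 467 and 476 CPM in Pelo -/- Lgr5, a log2 fold change of -9.30 ± 1.62. None of these Pelo -/- Lgr6 libraries held Lgr5 at the level seen in WT Lgr6 replicate 2. Lgr6 itself was again not called (0.98 ± 0.49, adjusted p = 0.220). A test of the difference between genotypes, with positive values for a larger log2 fold change in Pelo -/-, called 0 of 30405 genes in edgeR, with 1454 at an unadjusted p under 0.05. DESeq2 called 56 and limma-voom 0.

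Some genes nevertheless had unlike values side by side. Egr2 had 25.2, 26.8 and 25.5 CPM in Pelo -/- Lgr6, against 43.0, 14.7 and 0.859 CPM in Pelo -/- Lgr5, a log2 fold change of 0.40 ± 0.70 in Pelo -/- against 5.36 ± 0.85 in controls (adjusted p of the difference = 0.483). Cdkn2b, an inhibitor of cyclin D kinases, had -0.90 ± 0.75 in Pelo -/-, where it was not called, against 4.50 ± 0.89 in controls (adjusted p of the difference = 0.483). Itga3 had 0.86 ± 0.37 in Pelo -/- against 2.55 ± 0.39 in controls, with an adjusted p of the difference of 0.817. None of these differences passed. By list, class I presentation had 13 of 20 members called higher in Pelo -/- and glycolysis 13 of 19, and cytosolic ribosomal proteins had 23 of 80 there and AP-1, Egr and Klf factors 5 of 24. Bulge markers had 18 of 27 called lower in Pelo -/- and Hedgehog genes 8 of 15.

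**Figure D4:**
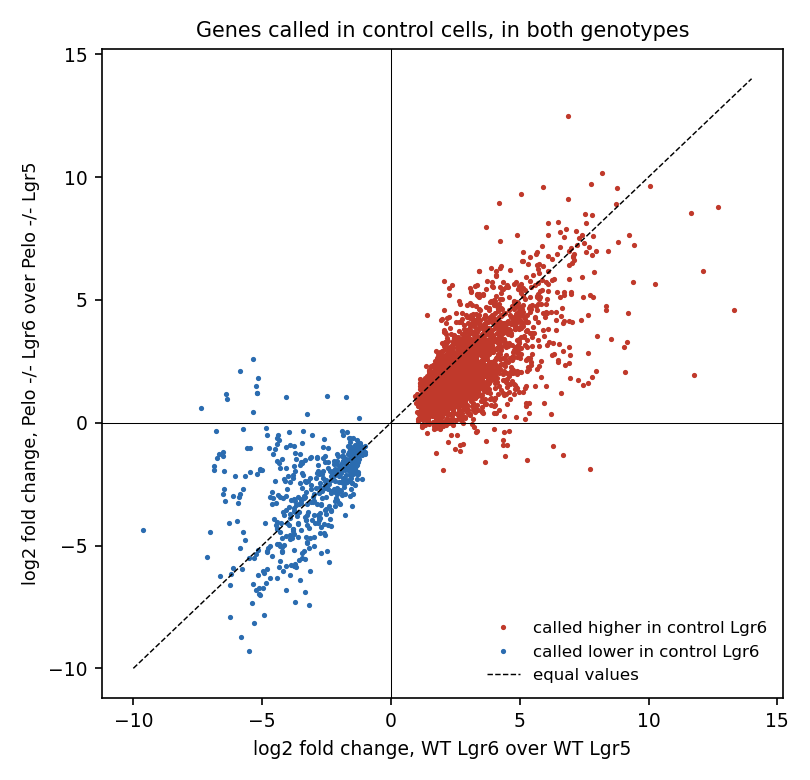
Log2 fold change of Lgr6 over Lgr5 in the 6 control libraries (horizontal) against the same in the 6 Pelo -/- libraries (vertical) for genes called in controls, with higher calls in red, lower calls in blue and a dashed line of equal values. Of the higher set 98.6% and of the lower set 96.9% keep their sign.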

How the data were processed

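RNA of sorted epidermal cells was sequenced in 17 libraries, and the authors deposited 1 table of raw read counts for 48820 gene identifiers. Per the submitters' processing notes STAR and edgeR were used with GRCm38 (mm10), while versions, the counting tool, the annotation release and the use of strand were not given in the sources used here. Without strand information, reads of overlapping and antisense genes cannot be told apart, and reads of near-identical genes may have been split or lost. Identifiers were given symbols and positions from the GRCm38 annotation, 40606 with their version and 48058 in all once versions were ignored, and 762 found no match. Libraries were built by the low-input method of Picelli et al. from 1000 sorted cells, so amplification may enlarge their spread.

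From the deposited counts, edgeR 4.0.16 in R 4.3.3 was run on the 17 libraries together, with 1 coefficient for each of the 6 groups. filterByExpr (minimum count 10, minimum total 15) kept 30405 genes and removed 18415, TMM gave the scaling factors, and the robust quasi-likelihood test gave p-values with Benjamini-Hochberg adjustment over the genes kept. A gene was called at an adjusted p under 0.05. Standard errors were computed as the absolute log2 fold change divided by √F. The same fit gave the Pelo -/- contrast and the difference between genotypes. The steps were tested on simulated data. DESeq2 1.42.0 and limma-voom (limma 3.58.1) were alternatives, beside other scaling factors, filters, thinning, a replicate block and fits without each library.

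The labels do not say that same-numbered libraries share an animal, litter or day, and the main fit used no pairing. The correlations of same-numbered WT Lgr6 and WT Lgr5 deviations were 0.01, -0.10 and -0.24. They cannot settle whether the numbers mark pairs, because deviations from a group mean balance out within each group. The genes compared and the lists were chosen with earlier results of these data known. Genes named are Lgr6, Lgr5, Ly6a, Grem1, Lrig1 and Pelo, the 15 largest folds per direction among called genes whose groups did not overlap and whose mean log2 CPM was at least 3, and up to 5 called members per direction of each list by p. Members named as not called, and members given to complete a list's calls, fall partly outside that rule and were chosen after their values were seen. Promoter windows are from RefSeq. Some called genes that the rule would name are not reported here.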

Additional observations from a re-analysis of the deposited data

How the results depend on the processing

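Of the 260 genes tabled for the control comparison, no called gene changed its sign in a fit that tested it. Calls were lost for 37 of them without WT Lgr6 replicate 3, for 27 in the 6 libraries alone, for 26 without WT Lgr5 replicate 3 and for 26 with upper-quartile factors, with fewer losses in every other fit. For the control comparison (3236 genes higher, 477 lower), counts moved by over 1.5 times to 3157 lower with DESeq2, 979 lower with RLE size factors, 797 lower with limma-voom, 1941 higher and 1725 lower without genes under 5 CPM, 1827 higher in the 6 libraries alone, 823 lower after thinning and 1692 higher and 1772 lower with upper-quartile factors. Without 1 library they ran from 1676 to 2908 higher and from 256 to 506 lower. For Pelo -/- cells (2198 higher, 828 lower), counts moved to 2500 lower with DESeq2, 1544 lower without genes under 5 CPM and 1347 higher and 1639 lower with upper-quartile factors, and without 1 library they ran from 1477 to 2387 higher and from 410 to 875 lower. The genotype difference (0 genes) had 26 higher and 30 lower with DESeq2, and 4 higher and 24 lower without a low-count filter. The causes of these moves were not tested, apart from the smaller number of samples or genes that some fits have by construction. With the replicate number as a block there were 3271 calls higher and 421 lower in the control comparison, but the labels do not say that the numbers pair the libraries, and no library pair was crossed. The depth of the WT Lgr5 libraries, 9647507 to 11261870 counts, limits what can be read of genes under 5 CPM.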

Other observations

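Processed pseudogenes are copies of messenger RNAs set back into the genome. Of 3104 tested, 695 were called higher in WT Lgr6 than in WT Lgr5 (22.4%) and 4 lower, whereas protein-coding genes had 2427 higher and 384 lower of 19398. Ribosomal protein pseudogenes, by symbol, had 112 of 206 called higher (54.4%) and 0 lower. These copies share sequence with parent genes that were themselves called, 63 of 80 cytosolic ribosomal protein genes among them, and reads of parent and copy cannot be told apart here. Long intergenic RNAs had 20 of 2097 called higher and 12 lower.

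Among genes with no counts on 1 side, 18 called higher were at 0 in all 3 WT Lgr5 libraries and 12 called lower were at 0 in all 3 WT Lgr6 libraries. Defb14, a beta-defensin with no counts in WT Lgr5, had 0.0596, 3.38 and 1.14 CPM in WT Lgr6. Against a floor of 3 counts over the Lgr5 group (0.0616 CPM) it was at least 24.7-fold higher, and at least 9.72-fold without WT Lgr6 replicate 2, which held most of its counts, while replicate 1 lay below that floor. For Defb14 the call was lost without WT Lgr6 replicate 2 or WT Lgr5 replicate 2 or 3 (adjusted p = 0.0552 to 0.0692).

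The 2 WT Lrig1 libraries, sorted for the upper follicle marker, were part of the joint fit but of no comparison here. Ly6a had 499 and 371 CPM in them, Grem1 25.5 and 14.8 CPM, Lgr5 27.99 and 8.46 CPM and Lgr6 109 and 58.3 CPM. Ly6a and Grem1 in these libraries thus lay within or near the ranges of the WT Lgr6 libraries and apart from those of the WT Lgr5 libraries. Cd34 had 28.3 and 44.6 CPM and Lhx2 30.6 and 21.6 CPM there, also below each WT Lgr5 library. Krt79 had 174 and 299 CPM and Defb6 138 and 136 CPM, both above each WT Lgr5 library.

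WT Lgr6 replicate 2 stood apart from its partners in some genes of the upper follicle and bulge, but not in others. It was the highest of its group for Krt79, Krt16, Defb6, Lgr5, Grem1, Cd34 and Lhx2, and the lowest for Krtdap, Il1rn and Serpinb5. It was also the lowest for Ly6a, Lrig1 and Ccn2, and lay between its partners for Plet1, Klf5 and Gata6. That replicate was the highest of its group in 26.4% and the lowest in 43.8% of the 3236 genes called higher. Of the 477 genes called lower it was the highest in 53.7% and the lowest in 15.1%. Whether its sort held another mix of cells was not tested.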
